A study of Homo sapiens with 29 samples.

Results

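In the cytosol of HEK293 cells, 510 of the 1519 windows listed for hnRNPA1 lay in genes with no row in the table of gene expression from the same cell line. These windows belong to 501 of the 1326 genes of the cytosolic list (37.8%), and they are mainly copies of other genes, small RNAs and genes without a symbol. A gene was taken when its Ensembl ID, without version, had no row in the table of the siRNA libraries. The members were thus chosen by the absence of a normalised expression value, and everything that follows from that choice is a description with no test. The same rule took a smaller share in the other compartments, with 1296 of 13007 windows in the whole-cell list (9.96%) and 213 of 1672 in the mitochondrial list (12.7%). In the cytosolic list it took 33.6% of the windows.

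The cells, HEK293, come from human embryonic kidney and were untreated for the RNA immunoprecipitation (RIP), in which beads carried either antibody to hnRNPA1 or, as control, normal IgG. The cytosolic arm has 4 hnRNPA1 and 4 IgG libraries, the whole-cell arm 3 and 3, and the mitochondrial arm 4 and 3. A further 8 libraries hold total RNA of the same line, 4 from cells with control siRNA and 4 from cells in which hnRNPA1 was knocked down. For each compartment 1 deposited list of 500-base windows was analysed, with the authors' signal value, p-value and q-value for each window. The lists give no value per library, so RIP values have no replicate error and their depth is unknown. The labels state that the recovered RNA was already degraded and was not fragmented further, and that good libraries came from all samples except 1, which they do not name. All results are from 1 cell line.

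hnRNPA1 is an abundant nuclear RNA-binding protein that shuttles to the cytoplasm. It takes part in splicing, binds motifs with the core UAGG and is known to bind some microRNA precursors. Small nucleolar RNAs (snoRNAs) guide the chemical modification of ribosomal RNA and are mostly cut from introns of host genes, scaRNAs do the same for spliceosomal RNAs, and U5 is itself a spliceosomal RNA. Processed pseudogenes are copies of messenger RNAs in the genome, close in sequence to the gene they came from, so reads of the parent and the copy can be hard to tell apart.

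The microRNA genes among the members were represented by 16 windows, and the mature sequences of the 5 with the highest signal value are shown with their seeds (bases 2 to 8) in capitals, together with miR-3651, whose window coincides with that of a snoRNA. All sequences are from RefSeq (GRCh38.p14), written 5′ to 3′ on the strand of the gene.
hsa-miR-3064-5p: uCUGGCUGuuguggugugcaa
hsa-miR-3064-3p: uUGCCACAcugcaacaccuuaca
hsa-miR-6797-5p: aGGAGGGAaggggcugagaacagga
hsa-miR-6797-3p: uGCAUGACccuucccuccccac
hsa-miR-4273: gUGUUCUCugauggacag
hsa-miR-6126: gUGAAGGCccggcggaga
hsa-miR-3682-5p: cUACUUCUaccuguguuaucau
hsa-miR-3682-3p: uGAUGAUAcagguggagguag
hsa-miR-3651: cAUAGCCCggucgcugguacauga

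The RefSeq table held 24 mature sequences of the members, and these had 24 distinct seeds, so no seed was shared. The hairpins of MIR3064 (chr17:64500774-64500839, minus strand) and MIR3651 (chr9:92292458-92292547, minus strand) show how short the annotated RNA is against the window.
MIR3064 hairpin: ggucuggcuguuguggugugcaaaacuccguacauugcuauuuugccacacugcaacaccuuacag
MIR3651 hairpin: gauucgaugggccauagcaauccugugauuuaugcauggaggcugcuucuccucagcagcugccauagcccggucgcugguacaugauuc

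The hairpin of MIR3064 is 66 bases long and filled 13.2% of its window. Both begin at the same lowest coordinate, which on the minus strand is the 3′ end of the hairpin. The letters UAGG occurred in 0 of the 13 member hairpins in the table and in 21.3% of all 1562 human hairpins, counting overlapping matches on the strand of the gene. On the other strand 2 member hairpins held them, against 18.7% of all. UAGGG occurred in 0 of 13 on the gene's strand and in 5.76% of all. These are matches of letters in short sequences and not measured sites.

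Promoters, taken as 250 bases before to 50 after the annotated start, lay within a member window for 5 members with at least 290 of their 300 bases. One of the protein-coding members with a high signal, PRRT1, was covered at its own promoter (chr6:32151890-32152189, minus strand). The window of MIR1181 covered the promoter of its host CDC37 (chr19:10403493-10403792, minus strand), a gene for a co-chaperone of protein kinases. TAGG is in capitals where it occurs.
PRRT1 promoter: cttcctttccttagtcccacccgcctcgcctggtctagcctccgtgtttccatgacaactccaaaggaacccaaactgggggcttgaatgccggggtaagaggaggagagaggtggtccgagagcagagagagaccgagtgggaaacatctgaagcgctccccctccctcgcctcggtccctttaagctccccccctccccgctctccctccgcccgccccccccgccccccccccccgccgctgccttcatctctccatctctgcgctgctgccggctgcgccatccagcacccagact
CDC37 promoter: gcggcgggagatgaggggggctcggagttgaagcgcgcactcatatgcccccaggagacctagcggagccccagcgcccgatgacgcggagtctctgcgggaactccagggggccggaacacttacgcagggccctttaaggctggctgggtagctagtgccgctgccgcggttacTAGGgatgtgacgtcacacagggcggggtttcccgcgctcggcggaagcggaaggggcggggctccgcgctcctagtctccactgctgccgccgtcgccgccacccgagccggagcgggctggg

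TAGG occurred in 1 of these 5 promoters, that of CDC37, and in 49.9% of all 35116 human promoters of the same length on the strand of the gene (48.5% on the other strand). The other 3 promoters were those listed for HAUS4 in the window of MIR4707, for RPL32 in the window of SNORA7A, and for LRRC9 on the other strand in the window of ENSG00000261120. RPL32 encloses SNORA7A, and whether the listed start is the main start of RPL32 was not tested.

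By class, 119 member genes were pseudogenes (23.8%), 81 were small RNAs (16.2%), 34 were long noncoding RNAs (lncRNAs, 6.79%), 20 were protein-coding or of another named type (3.99%) and 247 had no symbol (49.3%). Class was taken from the RefSeq gene type where there is one and otherwise from the symbol. Among the 825 cytosolic genes with a row, 26 were pseudogenes (3.15%), 10 small RNAs (1.21%), 34 lncRNAs (4.12%), 37 without a symbol (4.48%) and 718 protein-coding or other (87.0%).

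**Figure D1:**
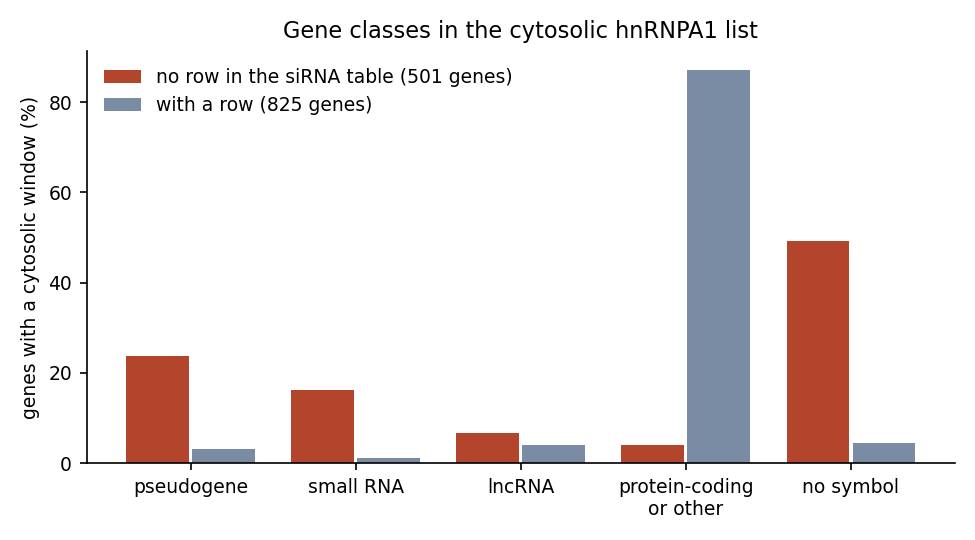
Share of genes with a cytosolic window (y axis, percent) in each gene class (x axis), for the 501 genes with no row in the siRNA table and the 825 with a row. Pseudogenes and small RNAs took 23.8% and 16.2% of the first and 3.15% and 1.21% of the second, and protein-coding genes 3.99% and 87.0%.

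The table has 16382 rows and 16384 lines and ends at ENSG00000284948, with IDs in order, so genes with later IDs may be cut off. That limit concerned 10 member genes with 10 windows. The other 491 genes, with 500 windows, have IDs before the last one and still no row. The nearest members before the end were ENSG00000284830 (signal value 1.50), ENSG00000284746 (1.51) and ENSG00000284711 (2.40), and the nearest after it were ENSG00000285314 (1.13), ENSG00000285446 (1.27) and ENSG00000285589 (1.26). No row of the table has all libraries under 8.51 normalised units, so a gene below that level has no row. Whether a member gene was expressed at a low level or not counted as a gene cannot be told from the table.

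The signal value of the member windows ran from 0.70 to 2.90 with a median of 1.48, and that of the 1009 windows with a row from 0.70 to 2.75 with a median of 1.16. The value is the authors' own, its scale is not given in the sources, and it is compared only within the cytosolic list. Of the windows ranked 20 or higher, 17 were members, and of those ranked 100 or higher, 74 were. The q-value was at most 0.005 in 183 member windows (35.9%) and in 431 with a row (42.7%). These shares are not on an equal footing, since q was the unadjusted p in 64.9% of member windows and in 4.86% of those with a row. How q was adjusted is not given in the sources.

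The 2 highest values of the list were both 2.90, in CHP1P1, a copy of the gene for calcineurin-like EF-hand protein 1 (q = 1.122e-06), and in GJD2-DT, a transcript that runs divergently from the gap junction gene GJD2 (q = 3.11e-05). FBXW10, which encodes an F-box protein, had 2.67, and PABPC1P3, a copy of the gene for the cytoplasmic poly(A)-binding protein, and ENSG00000271917 both had 2.61. SCARNA18B, KIAA1328P1 and PDCD5P1, which lie on chromosomes 1, 3 and 12, all had 2.54 with the same q of 5.425e-05. ENSG00000219755 followed with 2.44, then ENSG00000284711 and PRRT1 with 2.40. RPS27AP7 and SCARNA22, on chromosomes 2 and 4, shared 2.38 with a q of 0.000208, and TSPEAR-AS1 and ENSG00000234841 had 2.38 with q of 0.04174 and 0.02215.

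Values repeated exactly between genes on different chromosomes were common among the members. A total of 219 member windows (42.9%) had the same signal value, p and q as a window of another gene, against 1.88% of the windows with a row, most of which are protein-coding. In the whole-cell list the corresponding shares were 9.10% without a row and 5.12% with one, and in the mitochondrial list 1.41% and 0.343%. The largest set was 83 windows of 83 genes with a signal value of 1.51 and p and q of 0.03176, of which 78 were members: 44 genes without a symbol, 19 pseudogenes, 13 small RNAs, 1 lncRNA and 1 protein-coding gene, FUOM. The next set held 34 windows with 1.69 and 0.01476 (32 members), then 14 with 1.60 and 0.001213 (13 members). The 8 sets of at least 5 genes held 167 windows, 155 of them members.

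The 291 member windows with values of their own had a median signal value of 1.22, equal to the median of the whole list, and the repeated ones had 1.51. By class, values were repeated in 69 of 119 pseudogene windows (58.0%), 45 of 81 small RNA windows (55.6%), 98 of 254 windows without a symbol (38.6%), 5 of 36 lncRNA windows (13.9%) and 2 of 20 protein-coding windows (10.0%). In the windows with a row repeats made up 22.2% of 27 pseudogene windows, 2 of 10 small RNA windows, 10.0% of 40 windows without a symbol, 2.56% of 39 lncRNA windows and 0.672% of 893 protein-coding windows. p equalled q in 331 member windows (64.9%), and in 49 windows with a row (4.86%). It did so in all 81 small RNA members and in all 10 small RNA windows with a row, and in 82.4% of pseudogene members against 37.0% of pseudogene windows with a row. The number of reads behind a window is not in the list, so its part in the repeated values was not tested.

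**Figure D2:**
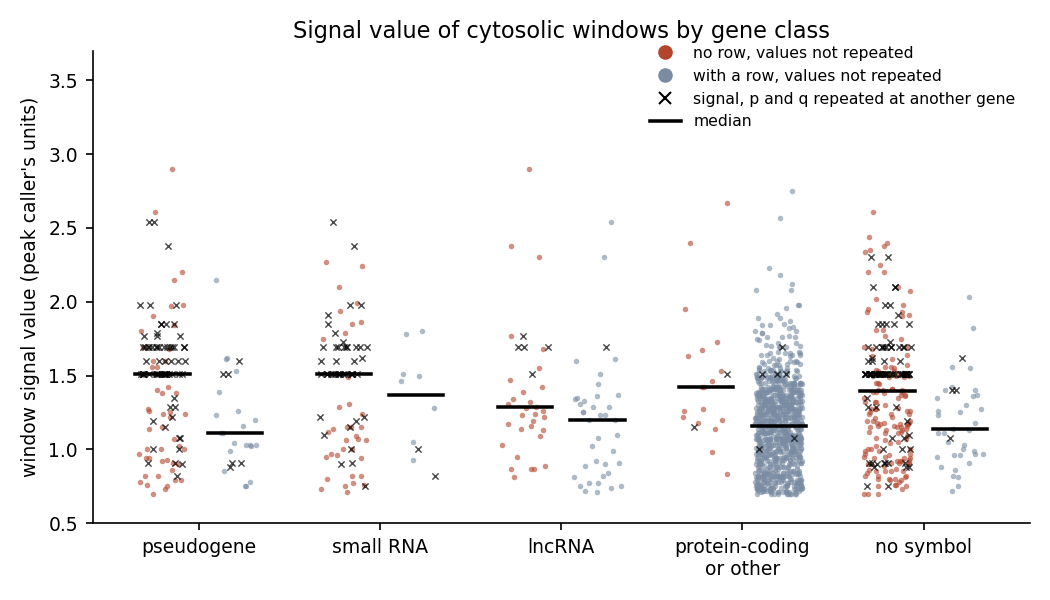
Signal value of every cytosolic window (y axis, in the peak caller's units) by gene class (x axis), with members on the left of each class and windows with a row on the right. Crosses mark values repeated at another gene, which for members line up at 1.51 and 1.69, and bars mark medians.

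Among the small RNA genes, snoRNAs were the main group, with 54 member genes against 7 cytosolic genes with a row, 6 in the whole-cell list and 0 in the mitochondrial list. Of the 54, 34 were H/ACA snoRNAs, which guide pseudouridylation, and 20 were C/D snoRNAs, which guide ribose methylation. Their signal values ran from 0.71 to 2.24 with a median of 1.51, and 31 of the 54 windows had repeated values. SNORA32 was the highest at 2.24 (q = 6.094e-10), with values of its own. SNORA62 and SNORA74B shared 1.98 and a q of 0.003391 with 5 other genes, and SNORA44 had 1.94 (q = 6.119e-07).

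The scaRNAs were SCARNA18B at 2.54, SCARNA22 at 2.38 and SCARNA17 at 1.09, and only SCARNA17 had a window of its own in the whole-cell list, at 4.05 (rank 12 there). Small nuclear RNA genes and their copies were 9 members with values from 0.86 to 2.27, against 2 cytosolic genes with a row. The functional U5 genes RNU5E-1 (2.27, q listed as 0), RNU5A-1 (2.10, q = 7.006e-14) and RNU5B-1 (1.14, q = 0.0002199) were among them, none with repeated values. These U5 genes are near-identical, so reads may be split between them. The 2 copies of 7SK, RN7SKP16 and RN7SKP176, had 1.19 to 1.69, the 7 copies of 7SL had 0.92 to 1.85, and the 4 Y RNA genes all had 1.51. The microRNA genes were 16, against 0 with a row and 5 in the whole-cell list, with a median of 1.26 and values from 0.73 (MIR1281) to 1.99 (MIR3064). After MIR3064 came MIR6797 (1.86), MIR4273 (1.79), MIR6126 (1.73) and MIR3682 (1.69), the last with values repeated at 33 other genes.

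The annotated small RNAs were much shorter than their windows. In 77 small RNA members with a RefSeq span, the span was 54 to 421 bases long with a median of 117, and it filled a median of 23.4% of the window. The window began at the lowest coordinate of the gene in 64 of these and within 2 bases of it in 74. For genes on the minus strand that coordinate is the 3′ end. Pseudogenes had a median span of 697 bases and filled a median of 96.2% of the window, and the span of 39 of them was under 500 bases. In all, 12 member windows with a span lay outside the RefSeq gene of the same symbol. The remaining listed bases of a small RNA window lie beside the gene, within its host where it has one. Whether reads of those bases entered the signal value is not given in the sources. SNORD60 and ENSG00000281010 shared 498 bases with values of 1.79 and 2.30, while SNORA50C and ENSG00000281311 shared 498 bases and the value 0.90. Overlaps with hosts, promoters and neighbouring genes are therefore statements of position only.

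**Figure D3:**
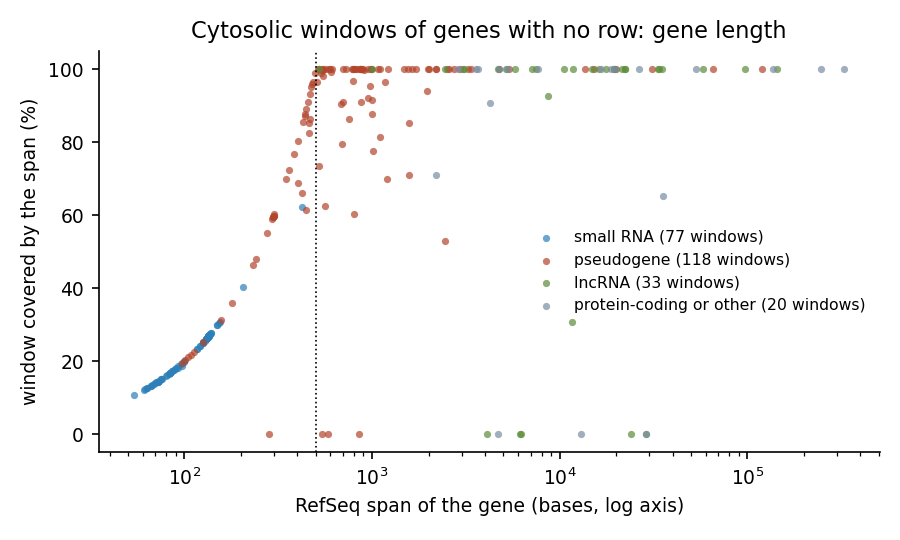
Share of each member window covered by the gene it is named for (y axis, percent) against the RefSeq span of that gene (x axis, bases, log axis), coloured by class, with the window length of 500 bases dotted. Small RNAs, with a median span of 117 bases, lie at the left and cover a median of 23.4%.

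Most small RNA members lay inside other genes. Of the 77 with a span, 68 (88.3%) were enclosed by a gene with a row, 48 of them known to be on the same strand and 4 on the other. Ribosomal protein genes held 19 of the 68 and small nucleolar RNA host genes (SNHG) 8. TAF1D, a subunit of the polymerase I factor SL1, enclosed 4, namely SNORA1, SNORA8, SNORA25 and SNORA32, and NOP56 and RPL23A enclosed 3 each. The host had a cytosolic window of its own for only 7 of the 68. SNORA32 and SNORA25 overlapped each other by 34 bases, with signal values of 2.24 and 1.19.

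Of the 81 small RNA windows, 28 (34.6%) overlapped a whole-cell window on the same strand, against 49 of all 510 member windows (9.61%) and 98 of the 1009 with a row (9.71%). Small RNA windows with a row overlapped one in 3 of 10 cases (30.0%), close to the share in the small RNA members. In 26 of the 28 a whole-cell window belonged to another gene, one with a row. SCARNA17, which is among these, and MT-TV had whole-cell windows of their own. SNORD62B overlapped a whole-cell window of ENSG00000130723, a gene with no row. The partners included TAF1D for SNORA32 (1.28 in the whole-cell list), SNHG19 for SNORD60 (3.88) and IARS1 for SNORA84 and MIR3651 (1.82). The windows of SNORA84 and MIR3651 differ by 3 bases at their start, with cytosolic values of 1.91 and 1.60.

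MT-TV, the mitochondrial transfer RNA gene for valine, was the only member on the mitochondrial chromosome. Its window (positions 1602 to 2102, plus strand) had 1.60 and covered the 69 bases of the tRNA and 431 bases of the large ribosomal RNA gene MT-RNR2. It was 1 of 14 windows with 1.60 and 0.001213. The same gene was listed at 3.17 in the whole-cell list and 1.89 in the mitochondrial list.

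Fewer member genes had windows of their own in other compartments. In the whole-cell list 36 of 501 (7.19%) had one, against 468 of 825 genes with a row (56.7%), and in the mitochondrial list 8 (1.60%) against 129 (15.6%). By class, 2 of 119 pseudogenes (1.68%), 2 of 81 small RNAs (2.47%), 7 of 34 lncRNAs (20.6%), 2 of 20 protein-coding genes (10.0%) and 23 of 247 genes without a symbol (9.31%) had a whole-cell window. Among cytosolic genes with a row the shares were 23.1% of pseudogenes, 0 of 10 small RNAs, 35.3% of lncRNAs, 61.4% of protein-coding genes and 24.3% of genes without a symbol. The genes listed in all 3 compartments were MT-TV, PRC1-AS1, CRTC3-AS1 and ENSG00000258199. PRC1-AS1 had at most 1.28 in the cytosol, 1.58 in the whole cell and 1.41 in mitochondria, and CRTC3-AS1 had 0.87, 1.30 and 1.64, where values of different lists are not on 1 scale. Among pseudogenes, SNRPGP2, a copy of the gene for a core spliceosomal protein, had 0.79 in the cytosol and 3.29 in the whole cell, and HSPE1P2 had 0.78 and 2.17. ENSG00000264545 had 1 cytosolic window at 1.17 and 7 whole-cell windows of up to 2.55. DIP2C-AS1, TDRD6-AS1, ENSG00000285314 and ENSG00000260342 had a mitochondrial window and no whole-cell one, the highest of them ENSG00000285314 at 2.11, rank 54 in that list.

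**Figure D4:**
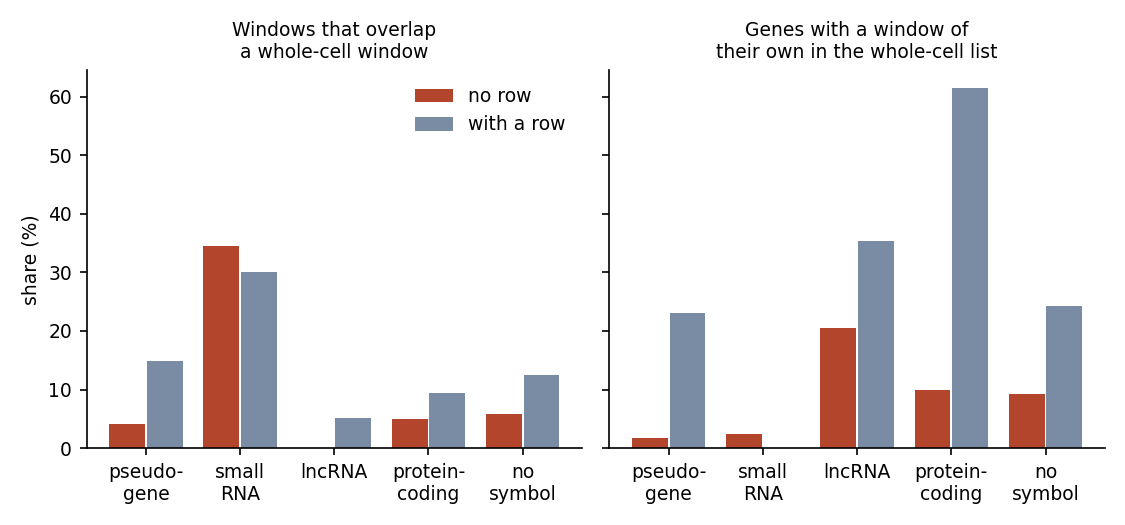
Share (y axis, percent) of cytosolic windows that overlap a whole-cell window on the same strand (left) and of genes with a whole-cell window of their own (right), by gene class and by whether the gene has a row. Small RNA members overlapped whole-cell windows in 34.6% of cases while 2.47% of these genes had one of their own.

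Pseudogenes divided into 16 copies of small RNAs and 103 others. Copies of cytosolic ribosomal protein genes were 21 members (4.19%), against 6 cytosolic genes with a row (0.727%). The whole-cell list held 63 such genes (0.904%) and the mitochondrial list 12 (1.03%). The 21 had a median signal value of 1.60 (0.82 to 2.38), and 17 of the 21 windows had repeated values. RPS27AP7 was the highest at 2.38, followed by RPL18AP2 at 1.98 and RPL5P17 at 1.97. None of the 21 had a whole-cell window under the same gene. The families with 3 members were those of RPS15A, RPS27A, the ferritin heavy chain gene FTH1 and the mitochondrial chaperonin gene HSPE1. RPS27AP11 and RPS27AP12 both had 1.29 with the same p, while RPS15AP12, RPS15AP30 and RPS15AP36 had 1.51, 1.35 and 1.60. FTH1P20 had 1.51, FTH1P3 1.02 and FTH1P23 1.00, and HSPE1P11 and HSPE1P26 both had 1.69, with different q, and HSPE1P2 had 0.78.

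Copies of hnRNP genes were 3 members, all with values of their own. HNRNPA3P10 had 1.60, HNRNPRP1 1.24 and HNRNPA1P35, a copy of the gene of the precipitated protein, 1.07. HNRNPA1 itself had no cytosolic window, while it had 3 in the whole-cell list (at most 1.52) and 3 in the mitochondrial list (at most 1.55). Translation and poly(A) factor copies were PABPC1P3 at 2.61 and EIF3LP2 at 0.75, and the actin, tubulin and keratin list held TUBB8P2 at 1.51. Copies of glycolytic enzymes, copies of mitochondrial DNA and zinc finger genes gave 0 members, where 18 cytosolic zinc finger genes had a row.

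Of the 103 pseudogenes that are not small RNA copies, 91 carry the name of a parent in the siRNA table. That parent had its own whole-cell window for 56 of them (61.5%) and its own cytosolic window for 7. PDCD5, a gene linked to programmed cell death, was listed in the cytosol at 0.85 while PDCD5P1 was at 2.54, and RPS15A was at 1.09. The parents of CHP1P1, PABPC1P3 and RPS27AP7 had no cytosolic window. KRT16P4 and TNPO1P2 on chromosome 17 overlapped by 353 bases and shared 1.60 and 0.001213, although the window named for KRT16P4 lay outside the RefSeq gene of that symbol.

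The lncRNAs included 21 antisense transcripts (0.81 to 2.38), 5 divergent transcripts (1.24 to 2.90) and 3 LINC genes (1.03 to 1.69), against 13, 6 and 8 cytosolic genes with a row. After GJD2-DT and TSPEAR-AS1 the highest were SND1-DT (2.30, q = 0.04711), ADAMTS9-AS1 (1.77, q = 0.001968) and SF1-DT (1.77, q = 0.0002888, shared with 3 other genes). The window named for ADAMTS9-AS1 lay outside the RefSeq gene of that symbol. DIP2C-AS1 had 2 windows, which overlapped windows of DIP2C on the other strand. The window at 1.14 overlapped that of DIP2C at 1.26, and the window at 0.87 overlapped those at 1.07 and 1.26. CRTC3-AS1 (0.87) and CRTC3 (0.88), and SORL1-AS1 (0.87) and SORL1 (1.49), also met on opposite strands. In all, 24 member windows overlapped a listed window of the other strand and 44 one of another gene on the same strand.

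The 20 protein-coding members included several genes best known from other tissues. After FBXW10 and PRRT1 came TNFRSF17, the B-cell maturation antigen (1.95), TGFBR3L (1.73) and SAPCD1 (1.67). GPX2, a glutathione peroxidase of the gut, had 1.63, CAV3, the muscle caveolin, 1.46 in a window outside its RefSeq span, and MLANA, a melanocyte antigen, 1.42. TPRG1, at 1.53, was also in the whole-cell list at 4.31, rank 6 there. UTY and the pseudogene PSMA6P1 overlapped on opposite strands of chromosome Y and had the same value, 1.15, and the same q. Readthrough genes, which join neighbouring genes in 1 transcript, were LY75-CD302 and HSPE1-MOB4 here and MIA-RAB4B and P2RX5-TAX1BP3 among the lncRNAs. LY75-CD302 (1.42) overlapped the window of CD302 (1.32), and MIA-RAB4B (1.17) those of RAB4B (1.41) and RAB4B-EGLN2 (1.36).

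The 247 genes without a symbol formed the largest class, with signal values from 0.70 to 2.61 and a median of 1.40. No RefSeq type or span could be matched to them, so they are described by position. The window lay within the span of a gene with a row for 183 of them, 69 known to be on the same strand and 85 on the other. ENSG00000258199 had the same 500 bases as a window of SMARCC2, a chromatin remodelling subunit, with 2.07 against 2.08. ENSG00000269469 had windows at 1.93 and 1.25 that overlapped windows of ALDH16A1 at 1.96 and 1.16. ENSG00000285589 (1.26) and WDR83OS (1.27) differed by 2 bases in position. ENSG00000188223 had the most windows, 4, with values of 1.35, 0.91, 0.90 and 0.89, of which those at 1.35 and 0.90 overlapped the window of LIN37 (1.17).

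Other members with 2 windows were ENSG00000226438 (1.40 and 1.22), ENSG00000271032 (1.17 and 1.00), ENSG00000267439 (0.95 and 0.75) and PRC1-AS1 (1.28 and 0.95). SNORD60 and ENSG00000281010 lay within 2 bases of each other with 1.79 and 2.30. SNORA50A was listed under 2 IDs with identical positions and values (1.69), and SNORA17A and ENSG00000281808, 1 base apart, both had 1.51. Genes without a symbol also met windows of named genes with another value, as for ENSG00000238390 at 1.85, which overlapped the window of the superoxide dismutase gene SOD1 (0.89) by 184 bases. SNORA6 (0.82) overlapped the window of its host RPSA (1.11), a ribosomal protein gene, by 327 bases.

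The members have no expression value, so the siRNA libraries were read at the genes tied to them by name or position. HNRNPA1 served as the check of the knockdown and as the parent of HNRNPA1P35. In normalised values its control libraries were at 18637, 20403, 18614 and 19348, and its knockdown libraries at 6506, 6413, 7185 and 5306. In such bulk RNA a change per cell and a change in how many cells were knocked down cannot be told apart. The groups did not overlap, and HNRNPA1 fell by 1.61 on the log2 scale (SE 0.09, limma-trend, adjusted p = 2.23e-06). Totals of the 8 libraries were between 17968459 and 20935045 normalised units. All 5 markers of the HEK293 line had a row, with a summed level of 5350 to 6663 in controls and 5239 to 6382 after knockdown. PAX2 was the lowest of these, at 4.92 to 16.9 in controls and 11.1 to 14.1 after knockdown. Markers of endothelium (0 of 4) and of blood cells (0 of 4) had none, and 2 of 5 fibroblast markers did, with sums of 79.9 to 105 in controls and 66.8 to 102 after knockdown. Both of these, COL1A1 and LUM, were above PAX2.

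Across all genes tested, 252 of 15267 were called at an adjusted p under 0.05 (1.65%), 103 higher (0.675%) and 149 lower (0.976%) after knockdown. Without 1 library the number was 61 (without control 4) to 250 (without knockdown 1), and it fell by more than 1.5 times without any of control 1 to 4, knockdown 2 or knockdown 3. Of the 79 parents of pseudogene members, all tested, 3 were called (3.80%), HNRNPA1, HMGN1 and CHP1, all lower. HNRNPA1 is the target of the siRNA, so its fall was set by the design, and only HMGN1 and CHP1 were called beyond it. HNRNPA1 was the only one called without control 1, 3 or 4 or without knockdown 2 or 3. The median log2 change of the parents was -0.08, against 0.00 for all genes, and 53 of the 79 (67.1%) were below 0, against 49.2% of all genes. The parents were more highly expressed than the genes tested in general, with a median of 2228 against 328 normalised units.

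HMGN1, which encodes a nucleosome-binding protein and is the parent of HMGN1P1, had control values of 7718, 6696, 6978 and 7939 and knockdown values of 5914, 5664, 4936 and 5841. The groups did not overlap, and it fell by 0.39 on the log2 scale (SE 0.08, limma-trend, adjusted p = 0.0394). The call was lost in 5 of 8 fits without 1 library (control 1, 3 or 4, knockdown 2 or 3), with adjusted p from 0.0414 to 0.129 over the 8 fits. CHP1, the parent of CHP1P1, had 967, 861, 866 and 870 in controls and 764, 701, 700 and 707 after knockdown. It fell by 0.31 (SE 0.07, adjusted p = 0.0496 with limma-trend), and the call was lost in 7 of 8 such fits, all but the one without knockdown library 1, with adjusted p from 0.0466 to 0.138 over the 8. It was also lost with a pseudocount of 0.1 (limma-trend, adjusted p = 0.0503) and with no filter on low values (adjusted p = 0.0539). Control library 1 and knockdown library 1 stood above the others of their group.

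The other parents by name did not pass the test. PABPC1 had 2714 ± 419 in controls and 3148 ± 314 after knockdown (SD, n = 4 each; limma-trend, adjusted p = 0.279), PDCD5 4072 ± 292 and 3627 ± 283 (adjusted p = 0.267), KIAA1328 200.1 ± 13.3 and 194.0 ± 12.0 (adjusted p = 0.849), FTH1 1711 ± 149 and 1796 ± 278 (adjusted p = 0.785) and HSPE1 3250 ± 424 and 3107 ± 585 (adjusted p = 0.791). The 14 ribosomal protein parents had log2 changes from -0.38 to -0.00, with a median of -0.18 and none called, their lowest adjusted p being 0.0664 for RPL26 (limma-trend). RPL26 had 34016, 29163, 26734 and 31379 in controls and 23587, 22729, 23593 and 22673 after knockdown, without overlap. The groups of RPL5 did not overlap either, with an adjusted p of 0.333 (limma-trend). The 10 parents with the highest mean value were RPL23A, RPL26, RPL7A, PPIA, RPS15A, RPS27A, RPL36A, RPL5, RPL15 and RPL22. Of these, the peptidyl-prolyl isomerase gene PPIA is not a ribosomal protein gene and had 20174 ± 1972 in controls and 17918 ± 809 after knockdown (SD, n = 4; limma-trend, adjusted p = 0.354).

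Genes that enclose members had a row in 146 cases, of which 144 were tested and 2 were called (1.39%, against 1.65% of all genes), with a median log2 change of 0.00. SNHG19, the host of SNORD60, had 456, 422, 367 and 324 in controls and 278, 313, 228 and 235 after knockdown. It fell by 0.57 on the log2 scale (SE 0.13, limma-trend, adjusted p = 0.0438), a call lost in 7 of 8 fits without a library, all but the one without knockdown library 2, with adjusted p from 0.0436 to 0.142 over the 8. NUDT13, which encodes a nudix hydrolase and encloses SNORA11F on the other strand, had 58.1, 45.5, 53.4 and 50.1 in controls and 79.8, 83.8, 78.3 and 74.6 after knockdown. It rose by 0.61 (SE 0.14, limma-trend, adjusted p = 0.0494), and the call was lost in 8 of 8 such fits, with adjusted p from 0.0660 to 0.136, and with no filter (adjusted p = 0.0503). In both genes the groups did not overlap, which is no further support, since they were chosen as called in the same libraries.

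**Figure D5:**
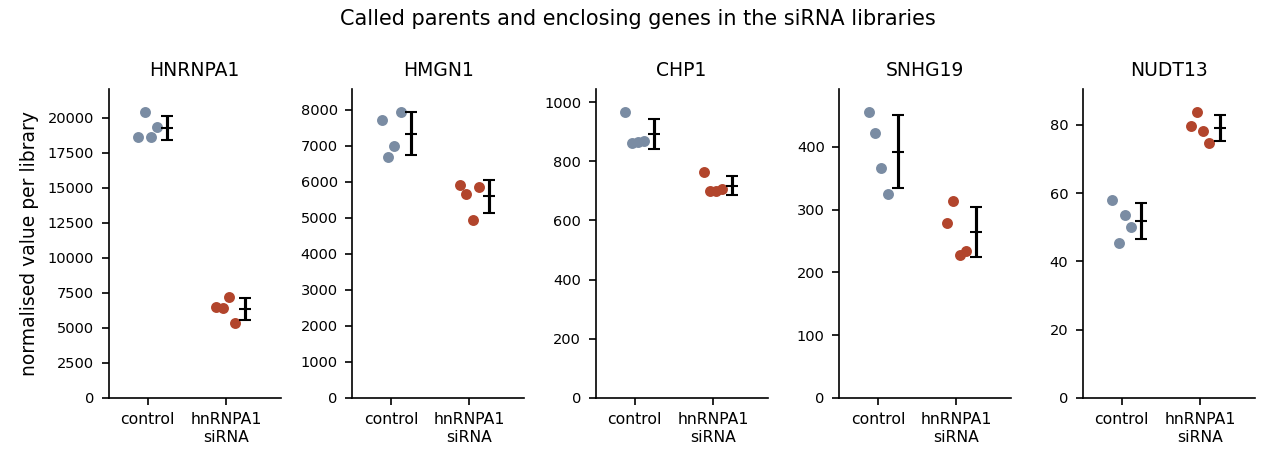
Normalised value (y axis, from 0) of the 3 called parents and 2 called enclosing genes in each siRNA library (points), with the mean and SD of 4 libraries (bars). HNRNPA1 control libraries lie between 18614 and 20403 and knockdown libraries between 5306 and 7185. In none of the 5 genes do the groups overlap. The 5 were chosen as called in these same libraries, so this separation is no further support.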

How the data were processed

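RNA was measured in 21 RIP and 8 siRNA libraries of HEK293 cells. The authors deposited 1 list of windows per compartment, with a signal score, a p-value and a q-value per 500-base window. The sources used here do not give how replicates and IgG entered these lists, the build or the scale of the signal score. Of 248 member windows with a RefSeq GRCh38.p14 span, 93 begin at that gene's lowest coordinate, on either strand. Windows were read as the 500 bases from the listed start. The authors deposited normalised values per gene (a signal that is never negative) for the siRNA libraries. The submitters' processing notes name hg38, DESeq2, STAR 2.7.8a and Partek for these, with no role given. The depth in reads is not given.

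The members, gene lists and comparisons were chosen with earlier results of these data known. Of 501 member genes, 493 matched an Ensembl name table, 254 had a symbol and 246 a RefSeq span. Windows were called overlapping from 1 base on. Genes with at least 10 in at least 4 siRNA libraries were tested with limma 3.58.1 (limma-trend, R 4.3.3) on log2(value + 1), two-sided, with Benjamini-Hochberg adjustment over 15267 genes. Fold changes on this scale understate the change of low genes. Separate cultures are not named in the labels, so the spread behind p-values may be technical. The test was run on simulated data first.

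A parent is the gene named by a pseudogene's symbol without its last P and number. The text names members with the highest signal value overall and by class, with 2 or more windows, in all 3 lists, of families with 3 or more members and near the last ID. It also names called parents and enclosing genes, parents of named pseudogenes and the 10 parents with the highest mean. Members named for overlaps or repeated values were chosen after their values were seen. Alternatives were a pseudocount of 0.1, no filter, a replicate block, each library left out, a q of at most 0.005, windows above the median signal value, matching by symbol, class by symbol, an overlap of 250 bases and either strand. Figures were drawn with matplotlib 3.10.9.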

Additional observations from a re-analysis of the deposited data

Results flagged for a closer look

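In the siRNA libraries 3 of 40 groups of 4 values of the genes named above held a library far from the other 3, where chance gives about 1 in 20 groups. PABPC1 had 2681 in knockdown library 2, and the other knockdown libraries had 3257 to 3348. CHP1 had 967 in control library 1 against 861 to 870 in the other controls. CHP1 also had 764 in knockdown library 1 against 700 to 707 in the others. No explanation was tested.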

How the results depend on the processing

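HNRNPA1, HMGN1, CHP1, SNHG19 and NUDT13, the called genes named above, kept their direction under every setting tried on them. A replicate block and no filter leave their fold change as it is, and the genes were chosen as called. A kept direction is therefore no further support. Without 1 library the calls of HMGN1, CHP1, SNHG19 and NUDT13 were lost in 5, 7, 7 and 8 of 8 fits. With a replicate block 1191 of all 15267 genes were called in place of 252. Of the 79 parents 8 were called in place of 3, with RPL26 gained among the parents named above. Of the 144 enclosing genes 11 were called in place of 2. The calls thus rose over all genes and not only in these lists. Same-numbered libraries correlated in their deviations at 0.119, 0.292, 0.0431 and 0.234, and 5 of 8 libraries correlated best with their own number. The main fit has no block because the labels name no pairing. Whether same-numbered libraries share a replicate effect was not tested. Leaving out 1 library gave 61 to 250 calls over all genes, with 1 to 3 among the parents and 0 to 1 among the enclosing genes. Without a filter 1 enclosing gene was called, and with windows of members without a span, added after seeing the data, 5 of 331 were (1.51%, against 1.39% of the 144).

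A q of at most 0.005 left 183 member windows of 179 genes (45 pseudogenes, 37 small RNAs, 9 lncRNAs, 4 protein-coding, 84 without symbol), 25 whole-cell and 7 mitochondrial overlaps. Signal values above the list median left 321 windows of 320 genes. The median signal value over windows with values of their own, chosen after seeing the data, was 1.22. Matching by symbol, the last ID, the pseudocount, the overlap of 250 bases, either strand and the class by symbol kept each count within 1.5 times. With no replicates, differences in signal value between windows have no error.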
